A study of Mus musculus with 6 samples.

Results

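Potassium channels are membrane proteins that let potassium leave or enter a cell along its gradient, and so set the resting membrane potential, cell volume and the drive for calcium entry. Voltage-gated channels open on depolarization, inward rectifiers pass current best near the resting potential, two-pore channels carry background leak currents, and calcium-activated channels couple the membrane potential to intracellular calcium. Marrow stromal, endothelial, mural and hematopoietic cells each use their own combination of these channels. The genes examined were all rows of the deposited count table whose symbol starts with Kcn, followed by lower-case letters and a number. This gave 92 of 56980 genes, namely 47 voltage-gated genes (40 for pore-forming and 7 for accessory subunits), 15 inward rectifiers, 14 two-pore genes, 12 calcium-activated genes with their accessory subunits, and 4 *Kcnip* genes, whose products bind Kv4 channels.

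Bone marrow (BM) MSCs are adherent stromal cells that can form osteoblasts and adipocytes. The recipients were female mice that underwent bilateral ovariectomy (OVX) at 8 weeks of age, whose gut microbiota had been depleted with antibiotics. They then received fecal microbiota transplantation (FMT) for 8 weeks from osteoporotic OVX donors. These donors were either sedentary (TranspCtrl, called FMT-Ctrl in the labels) or trained on a treadmill (TranspExer, FMT-Exer in the labels). MSCs were obtained by culturing flushed femur and tibia marrow for 7 days with washing and no sorting step, and RNA-Seq was performed on 3 samples per group. The labels do not say whether these samples came from separate mice, so p-values measure only the spread between samples, which may be technical.

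The libraries held 17647682 to 21319228 counts, at which 3 counts, the floor used here, equalled 0.139 to 0.174 CPM (counts scaled to library size with TMM factors). Between 56 and 60 of the 92 genes had a count in a given library, and 22 had none in any library. This floor covers counting error only. Over the tested potassium channel genes, the distance between libraries in log2 CPM was 2.96 to 3.32 within TranspCtrl, 2.38 to 2.44 within TranspExer and 6.97 to 8.07 between the groups. Over all genes, TranspCtrl replicate 1 stood apart from the other TranspCtrl libraries, with a mean chi-square per gene of 54.1 and 59.3 against 3.79 between replicates 2 and 3, so the counts of genes passing the thresholds are also given without it.

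All 12 stromal markers were detected, with group means from 3.43 CPM for *Nt5e* in TranspExer to 8042.5 CPM for *Col1a1* in TranspCtrl, and *Thy1*, *Lepr* and *Nt5e* lay below the median of all tested genes. Markers of other cell types were present too, in amounts that moved between the groups. The summed level of the endothelial markers was 219 to 260 CPM in TranspCtrl and 695 to 731 CPM in TranspExer libraries, with 12 of 12 genes higher past the adjusted p threshold, where 16.6% of all tested genes were higher and 15.5% lower. Of 9 pericyte and smooth muscle markers, 5 were higher and 3 lower past that threshold, and the sum was 2540 to 2990 CPM against 1850 to 2060 CPM. Of 12 stromal markers, 2 were higher and 8 lower (14800 to 23000 CPM against 13900 to 15300 CPM). All 6 osteoclast markers were lower (357 to 482 CPM against 124 to 134 CPM), as were all 6 B and plasma cell markers (1500 to 1900 CPM against 338 to 371 CPM). Of 5 megakaryocyte markers 3 were higher (247 to 311 CPM against 437 to 473 CPM). Of 5 mast cell, basophil and eosinophil markers 4 were higher (31.3 to 45.7 CPM against 107 to 116 CPM). Of 8 neutrophil and myeloid progenitor markers 3 were higher and 1 lower (3160 to 4230 CPM against 5460 to 5680 CPM). Of 9 macrophage markers 2 were higher and 1 lower (4030 to 4940 CPM against 4510 to 4680 CPM), and of 6 T and NK cell markers 2 were higher and 1 lower (55.4 to 57.7 CPM against 74.4 to 80.6 CPM). Of 4 tested neuron and glia markers 1 was higher and 2 lower (30.0 to 36.7 CPM against 21.2 to 25.1 CPM, with *Snap25* at 0 in every library), and the 6 erythroid markers summed to at most 0.558 CPM. In such bulk samples, fewer cells of a type and less RNA per cell cannot be told apart. The part of these cells in the results that follow was not tested.

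Promoter sequences are shown for 4 genes on which the comparison turned: the inward rectifier *Kcnj8*, the accessory subunit *Kcne4*, and the neighbouring Shaker-type channels *Kcna2* and *Kcna3*, which changed in opposite directions. RefSeq promoters on GRCm38.p6, from 250 bases before to 50 after the transcript start, were matched by symbol for 67 of the 92 genes. Letters in capitals mark matches, on either strand, to the TATA box motif TATAAA. They also mark the motif CCAAT, and the GC box motif with the letters GGGCGG. No marked matches overlap. The windows are chr6:142571565-142571864 (minus strand) for *Kcnj8*, chr1:78816661-78816960 (plus strand) for *Kcne4*, chr3:107101317-107101616 (plus strand) for *Kcna2* and chr3:107035912-107036211 (plus strand) for *Kcna3*.
Kcnj8: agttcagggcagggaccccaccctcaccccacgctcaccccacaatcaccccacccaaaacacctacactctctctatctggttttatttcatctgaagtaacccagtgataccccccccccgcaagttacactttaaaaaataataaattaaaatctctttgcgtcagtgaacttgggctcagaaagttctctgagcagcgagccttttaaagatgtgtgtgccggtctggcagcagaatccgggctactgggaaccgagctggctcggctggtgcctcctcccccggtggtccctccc
Kcne4: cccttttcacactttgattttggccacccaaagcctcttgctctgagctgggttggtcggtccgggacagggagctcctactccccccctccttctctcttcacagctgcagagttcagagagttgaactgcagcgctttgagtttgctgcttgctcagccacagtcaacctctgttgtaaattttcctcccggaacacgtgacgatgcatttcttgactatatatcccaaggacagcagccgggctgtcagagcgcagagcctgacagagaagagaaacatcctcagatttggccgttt
Kcna2: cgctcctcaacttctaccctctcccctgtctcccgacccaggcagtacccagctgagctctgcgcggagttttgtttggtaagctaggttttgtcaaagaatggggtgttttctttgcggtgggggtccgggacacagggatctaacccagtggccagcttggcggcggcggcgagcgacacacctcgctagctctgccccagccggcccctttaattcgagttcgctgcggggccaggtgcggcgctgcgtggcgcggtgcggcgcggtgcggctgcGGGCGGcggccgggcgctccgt
Kcna3: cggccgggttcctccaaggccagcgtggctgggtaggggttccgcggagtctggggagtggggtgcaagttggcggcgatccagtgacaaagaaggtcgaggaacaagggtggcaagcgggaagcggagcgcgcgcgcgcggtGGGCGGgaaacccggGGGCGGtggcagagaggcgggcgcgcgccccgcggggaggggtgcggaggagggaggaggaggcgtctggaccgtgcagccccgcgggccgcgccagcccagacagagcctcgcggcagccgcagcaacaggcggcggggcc
The *Kcna2* window held 31 CpG dinucleotides and 1 GC box, and the *Kcna3* window 37 CpG dinucleotides and 2 GC boxes. The *Kcnj8* and *Kcne4* windows held 9 CpG dinucleotides each and none of the 3 motifs. Over 32851 mouse promoters of this length, 35.7% held a GC box, 37.4% a CCAAT box and 13.6% a TATA box. The median promoter held 7 CpG dinucleotides.

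Levels of potassium channel genes were low and concentrated in a few members. The summed CPM of all 92 genes was 269, 312 and 312 in the TranspCtrl libraries and 374, 378 and 406 in the TranspExer libraries, so that the groups did not overlap, and 5 genes held 69.9% of the sum over the 6 libraries. These were *Kcnab2*, *Kcnk6*, *Kcnj2*, *Kcnn4* and *Kcnk13*. The median level of a tested member was 2.04 CPM, against 20.1 CPM over all tested genes. Per kilobase of gene length as given by the authors, and averaged over the 6 libraries, *Kcnab2* was highest with 23.5 CPM per kilobase, followed by *Kcnn4* with 18.2, *Kcnk6* with 11.2, *Kcne3* with 9.37, *Kcnk13* with 8.0 and *Kcnj2* with 7.90. The order differed between the groups. In TranspCtrl, *Kcnn4* (19.3 CPM per kilobase) and *Kcnab2* (18.9) lay close together, as did *Kcne3* (10.9) and *Kcnk6* (10.05). In TranspExer, *Kcnab2* stood at 27.98 CPM per kilobase and *Kcnn4* at 17.1, and *Kcne3* (7.86) lay below *Kcnk13* (9.88) and *Kcnj2* (9.27). The inward rectifiers *Kcnj10* and *Kcnj8* came next with 4.48 and 3.81 CPM per kilobase. By class, the summed CPM of the inward rectifiers was 56.5, 72.9 and 69.7 in the TranspCtrl libraries and 104, 105 and 117 in the TranspExer libraries. That of the voltage-gated genes was 100, 117 and 122 in the TranspCtrl libraries and 144, 143 and 160 in the TranspExer libraries, and that of the two-pore genes 64.6, 73.5 and 69.8 in the TranspCtrl libraries and 84.6, 89.8 and 86.4 in the TranspExer libraries. The sum of the calcium-activated genes was lower in the TranspExer libraries, with 44.2, 45.02 and 47.8 in the TranspCtrl libraries and 39.7, 38.5 and 41.4 in the TranspExer libraries, and the *Kcnip* genes summed to 2.98, 3.54 and 2.70 in the TranspCtrl libraries and 1.99, 2.27 and 2.14 in the TranspExer libraries. None of these 5 class sums overlapped between the groups, where 52.4% of all tested genes did not overlap, and the sums were not tested. Single genes weighed heavily in them. *Kcnab2* had means of 72.0 CPM in TranspCtrl and 106 CPM in TranspExer, within mean voltage-gated sums of 113 and 149 CPM. *Kcnn4* had means of 38.4 and 34.1 CPM in these groups, within mean calcium-activated sums of 45.7 and 39.8 CPM.

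**Figure D1:**
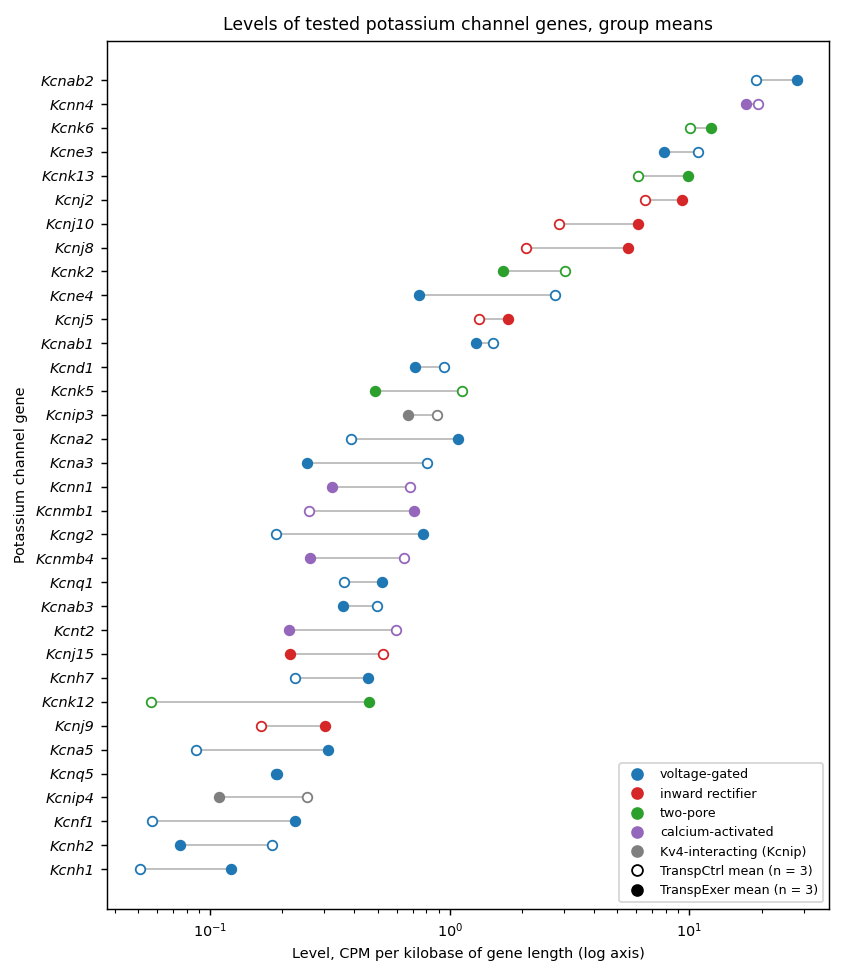
Level of 34 tested potassium channel genes in CPM per kilobase of gene length on a log axis, with open circles for the TranspCtrl mean and filled circles for the TranspExer mean (n = 3 each), coloured by class. *Kcnab2* and *Kcnn4* lie at the top, and *Kcnk12* shows the widest gap between the group means drawn.

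Of the 92 genes, 37 passed the low-count filter and were tested, with p-values adjusted over all 15190 genes tested. With the thresholds of the study, an adjusted p of 0.05 together with at least a 2-fold change, 11 were upregulated and 6 downregulated in TranspExer, which is 29.7% and 16.2% of the 37. These counts were 2 and 1 when a fold change of 2 was tested in the model, and 6 and 6 with a filter of 1 CPM in 3 samples, under which 28 members were tested. Over all tested genes, 3.5% were upregulated, 5.28% downregulated and 8.78% either. At the adjusted p threshold alone, 16 were higher and 7 lower, where 16.6% and 15.5% of all tested genes passed (32.2% in either direction). The groups did not overlap for 33 of the 37 (17 higher and 16 lower), where 27.2% of all tested genes were higher without overlap and 25.1% lower (52.4% in all). The median log2 fold change of the 37 was 0.05, against -0.02 over all tested genes, while the median of its absolute value was 1.08 against 0.295. The median over the 37 took either sign under the alternatives tried.

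The filter bears on these counts. A gene passed it with about 0.511 CPM in 3 libraries, and 25 of the 37 reached that level in all 6 libraries. Of these 25, 5 were upregulated, 5 downregulated, 6 passed the adjusted p threshold without the fold threshold and 9 passed neither. All 5 genes that reached it in TranspExer libraries only, among them *Kcnk12*, *Kcnf1*, *Kcna5* and *Kcnh1*, were upregulated, and a gene that passed in this way had to differ. The 4 that reached it in TranspCtrl libraries only, among them *Kcnmb4*, *Kcnip4* and *Kcnh2*, did not pass the adjusted p threshold. By level, of 9 members with a mean under 1 CPM, 4 were upregulated and 0 downregulated, against 6.33% and 12.7% of all tested genes at that level. These 4 were *Kcnk12*, *Kcnf1*, *Kcna5* and *Kcnh1*, which passed the filter through TranspExer libraries only, so nothing is read from their number. Of 19 members at 1 to 5 CPM, 5 were upregulated and 6 downregulated, against 6.01% and 12%. Of 9 members at 5 CPM or more, 2 were upregulated and 0 downregulated, against 2.58% and 2.84%. Without TranspCtrl replicate 1, 10 were upregulated and 8 downregulated of 40 tested, and 14 of the 17 calls were shared. Without TranspExer replicate 3, these numbers were 7 and 5 of 40, with 11 calls shared.

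**Figure D2:**
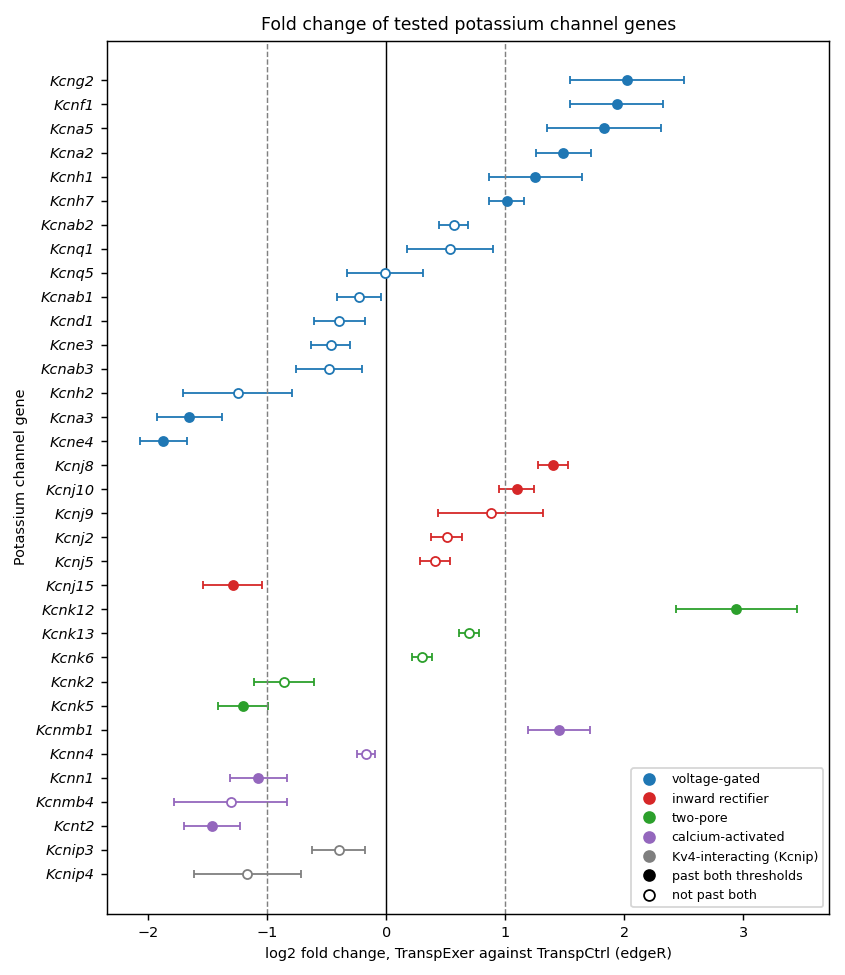
Log2 fold change of 34 tested genes (TranspExer against TranspCtrl, edgeR) with its standard error, grouped and coloured by class, with filled points for genes past both thresholds and dashed lines at a fold change of 2 in either direction. Pore-forming voltage-gated genes hold 6 of the 10 upregulated genes drawn, of which *Kcna5*, *Kcnf1* and *Kcnh1* passed the filter through TranspExer libraries only, and the *Kcnip* genes and most accessory subunits lie left of 0.

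Among pore-forming voltage-gated genes, 14 of 40 were tested, of which 7 were upregulated and 1 was downregulated, against 3.5% and 5.28% of all tested genes. *Kcna5*, *Kcnf1* and *Kcnh1* are among the upregulated genes that passed the filter through TranspExer libraries only. *Kcnq1*, the pore of the slow delayed rectifier of heart and epithelia, had 0.635, 1.54 and 1.12 CPM in TranspCtrl and 2.04, 1.22 and 1.49 CPM in TranspExer and a log2 fold change of 0.54 (adjusted p = 0.282), and it shares exonic sequence with the antisense transcript *Kcnq1ot1*. For *Kcnq5* the values were 1.17, 1.75 and 1.07 CPM in TranspCtrl and 0.889, 1.45 and 1.59 CPM in TranspExer, and the difference did not pass and took either sign with 1 library left out (log2 fold change -0.01, adjusted p = 0.975).

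The Shaker-type genes *Kcna3* and *Kcna2* are adjacent on chromosome 3, 63.1 kb apart with no protein-coding gene between them, and they changed in opposite directions. *Kcna2* (ENSMUSG00000040724, chr3:107101146-107115005, plus strand), a delayed rectifier best known from axons, had 2.20, 1.49 and 1.39 CPM in TranspCtrl and 4.34, 4.24 and 5.66 CPM in TranspExer. All 3 TranspExer libraries lay above all TranspCtrl libraries (log2 fold change 1.49, SE 0.23, edgeR adjusted p = 0.00277). *Kcna3* (ENSMUSG00000047959, chr3:107036169-107038070, plus strand), the channel of T lymphocytes and macrophages, had 1.66, 1.39 and 1.53 CPM in TranspCtrl and 0.419, 0.581 and 0.447 CPM in TranspExer. Here every TranspExer library lay below every TranspCtrl library (log2 fold change -1.66, SE 0.27, edgeR adjusted p = 0.00345). The deposited counts of *Kcna3* were not whole numbers in any of the 6 libraries, as estimated counts can be where reads match several features, and no such feature was identified here. *Kcna10*, the next gene along, had no count. *Kcna5*, a channel of atrial and vascular smooth muscle, rose at a low level, with 3, 9 and 3 counts in the TranspCtrl libraries against 19, 17 and 14 in those of TranspExer (log2 fold change 1.83, SE 0.48, edgeR adjusted p = 0.0225). Without TranspCtrl replicate 2 its log2 fold change was 2.59, and without TranspCtrl replicate 3 or any 1 of the TranspExer replicates its adjusted p-value was 0.0523 to 0.0797.

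*Kcng2* and *Kcnf1* encode electrically silent subunits that form channels only together with Kcnb subunits. *Kcng2* had 3, 9 and 21 counts in the TranspCtrl libraries against 46, 33 and 45 in those of TranspExer, with a wide spread in TranspCtrl and no overlap (log2 fold change 2.02, SE 0.48, edgeR adjusted p = 0.0153). Its log2 fold change was 2.83 without TranspCtrl replicate 3, and its adjusted p-value was 0.0601 without TranspExer replicate 1 and 0.06 without TranspExer replicate 3. *Kcnf1* (ENSMUSG00000051726, chr12:17172100-17176888, minus strand) had 6, 4 and 7 counts in the TranspCtrl libraries against 17, 26 and 17 in those of TranspExer, again without overlap (log2 fold change 1.93, SE 0.39, edgeR adjusted p = 0.00836). The silent subunit gene *Kcng1* and the pore-forming partner *Kcnb2* were below the filter, with 3, 5 and 6 against 12, 6 and 8 counts for *Kcng1* and at most 2 counts in a library for *Kcnb2*.

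In the ether-a-go-go family, *Kcnh7* and *Kcnh1* passed both thresholds and *Kcnh2* did not. *Kcnh7* (ENSMUSG00000059742, chr2:62693414-63184287, minus strand), a channel of the ERG type, had 2.73, 3.23 and 3.07 CPM in TranspCtrl and 5.81, 6.04 and 6.36 CPM in TranspExer, with no overlap (log2 fold change 1.01, SE 0.15, edgeR adjusted p = 0.00189). Its counts were not whole numbers in any library, and its exons overlap those of *Gca* on the other strand. *Gca*, which encodes the calcium-binding protein grancalcin of neutrophils and macrophages, had 301, 395 and 425 counts in TranspCtrl against 620, 627 and 662 in TranspExer (log2 fold change 0.89, adjusted p = 0.00216 from edgeR). The labels name a stranded kit, but the counting mode is not given in the sources used here, so reads of *Kcnh7* and *Gca* may not be separable. Under 6 of 12 alternatives the log2 fold change of *Kcnh7* was below 1, with 0.945 without TranspCtrl replicate 1 and 0.963 without TranspExer replicate 3. *Kcnh1* had 8, 5 and 10 counts in the TranspCtrl libraries against 14, 12 and 25 in those of TranspExer (log2 fold change 1.25, SE 0.39, edgeR adjusted p = 0.0414). This call was lost under 10 of 11 alternatives, among them each library left out, with values of 0.0514 to 0.163 after adjustment. *Kcnh2*, the ERG channel of cardiac repolarization, had 22, 13 and 12 counts in the TranspCtrl libraries against 3, 6 and 9 in those of TranspExer. Its log2 fold change of -1.25 did not pass the test (adjusted p = 0.0704). *Kcnd1*, a fast inactivating channel, did not pass either, and its groups overlapped, with 3.86, 5.39 and 5.77 CPM in TranspCtrl and 3.35, 3.37 and 4.67 CPM in TranspExer (log2 fold change -0.39, adjusted p = 0.191). Without TranspCtrl replicate 1 it passed the adjusted p threshold (log2 fold change -0.55, adjusted p = 0.0285).

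**Figure D3:**
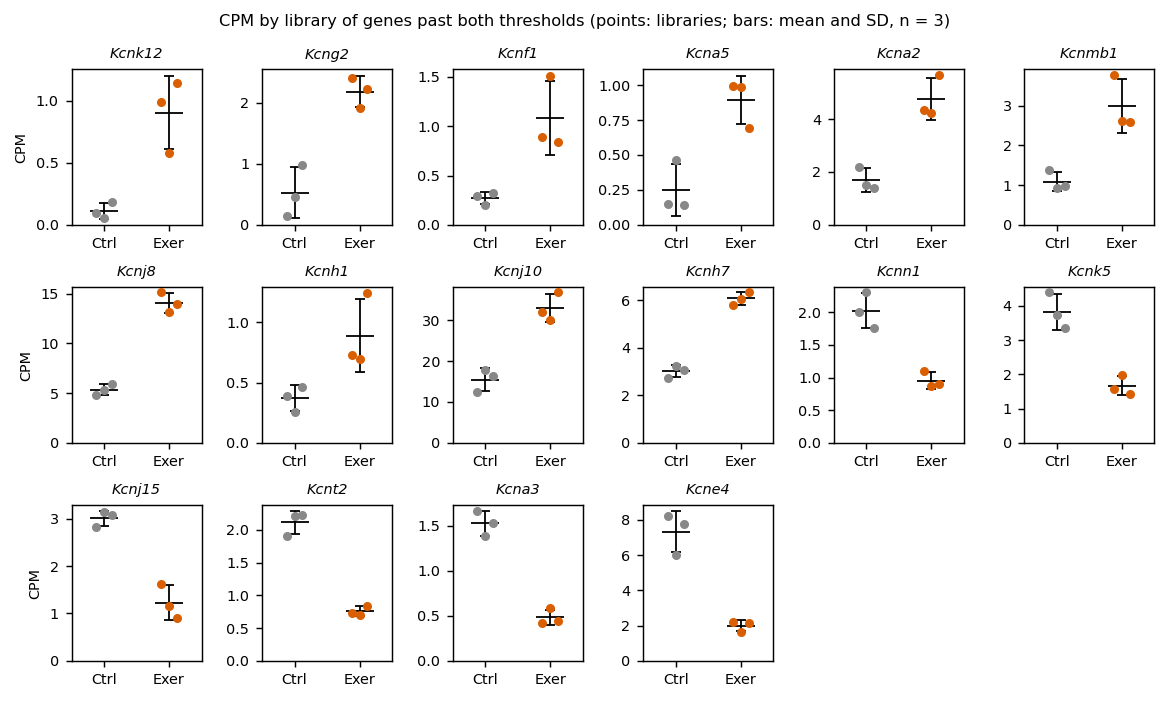
CPM of 16 genes past both thresholds in each library (grey TranspCtrl, orange TranspExer), with bars for the mean and SD (n = 3), ordered from the largest rise to the largest fall, each on its own axis starting at 0. In all 16 panels the libraries of the groups do not overlap. The genes drawn were chosen by thresholds on these same libraries, so this separation adds no support. Of all tested genes, 52.4% did not overlap. Among the 10 upregulated genes drawn, 8 stay below 7 CPM.

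The accessory subunits of voltage-gated channels differed among themselves, with 1 downregulated gene and 1 higher past the adjusted p threshold among 5 tested. Of all tested genes, 5.28% were downregulated and 16.6% were higher past the adjusted p threshold. *Kcne4* (ENSMUSG00000047330, chr1:78816758-78820028, plus strand) encodes a single-pass membrane protein known to inhibit Kcnq1 and Shaker-type channels. It had 8.20, 6.01 and 7.76 CPM in TranspCtrl and 2.20, 1.63 and 2.14 CPM in TranspExer, so that all TranspExer libraries were well below all TranspCtrl libraries. Its level fell from 7.32 ± 1.16 CPM in TranspCtrl (SD, n = 3) to 1.99 ± 0.313 CPM in TranspExer (SD, n = 3) (log2 fold change -1.87, SE 0.19, edgeR adjusted p = 0.000419). This was the largest fall among the 37 genes, and under the alternatives tried its log2 fold change ranged from -1.99 to -1.76. *Kcne3*, a related subunit that keeps Kcnq1 channels open in epithelia, had 11.96, 8.47 and 9.90 CPM in TranspCtrl and 8.27, 6.28 and 7.35 CPM in TranspExer. The groups did not overlap, but the log2 fold change of -0.47 did not pass the test (adjusted p = 0.0631), although it passed under 5 of 12 alternatives, among them the fit without TranspCtrl replicate 2 (adjusted p = 0.0389). *Kcnab2* (ENSMUSG00000028931, chr4:152390742-152477871, minus strand), the cytosolic beta subunit of Shaker-type channels and the most abundant member, had 58.4, 77.2 and 80.3 CPM in TranspCtrl and 102, 103 and 114 CPM in TranspExer. It was higher in every TranspExer library (log2 fold change 0.56, SE 0.13, edgeR adjusted p = 0.0121), under the fold threshold, and without TranspExer replicate 3 its adjusted p-value was 0.0561. The other beta subunits, *Kcnab1* and *Kcnab3*, did not pass the test, with a log2 fold change of -0.23 for *Kcnab1* (adjusted p = 0.36) and -0.48 for *Kcnab3* (adjusted p = 0.214).

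Of the 15 inward rectifiers 6 were tested, with 2 upregulated and 1 downregulated, against 3.5% and 5.28% of all tested genes. Another 2 were higher past the adjusted p threshold alone. *Kcnj8* (ENSMUSG00000030247, chr6:142564837-142571614, minus strand) encodes the pore of the ATP-sensitive potassium channel of vascular smooth muscle and pericytes, and its promoter is the first of those printed. It had 4.79, 5.29 and 5.91 CPM in TranspCtrl and 15.1, 13.1 and 13.96 CPM in TranspExer, with tight groups and no overlap. Its level rose from 5.33 ± 0.561 CPM in TranspCtrl (SD, n = 3) to 14.1 ± 0.997 CPM in TranspExer (SD, n = 3) (log2 fold change 1.40, SE 0.13, edgeR adjusted p = 0.000233). *Abcc9* (ENSMUSG00000030249, chr6:142587862-142702315, minus strand) encodes the sulfonylurea receptor that surrounds this pore, and it lies 16.2 kb from *Kcnj8* with no protein-coding gene between them. It had 7.32, 8.16 and 8.88 CPM in TranspCtrl and 18.8, 18.5 and 19.2 CPM in TranspExer (log2 fold change 1.21, SE 0.11, edgeR adjusted p = 0.000218). Both genes of this channel rose, and the difference between their fold changes was not tested. The other pore and receptor genes of ATP-sensitive channels, *Kcnj11* and *Abcc8*, had at most 2 and 4 counts in any library. Among the 9 pericyte and smooth muscle markers, *Cspg4*, *Rgs5*, *Notch3*, *Mcam* and *Myh11* rose (log2 fold changes 2.82, 1.90, 1.26, 1.01 and 0.97), and *Cnn1*, *Tagln* and *Acta2* fell (log2 fold changes -1.30, -0.98 and -0.47). *Des* did not pass the test (log2 fold change -0.38, adjusted p = 0.204). The endothelial marker *Cdh5* rose by 2.02 on the log2 scale. The part of mural and endothelial cells in the *Kcnj8* and *Abcc9* values was not tested.

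*Kcnj10* (ENSMUSG00000044708, chr1:172341210-172374085, plus strand), known for potassium buffering in glia, had 12.4, 17.7 and 16.3 CPM in TranspCtrl and 31.96, 30.2 and 36.9 CPM in TranspExer. The groups did not overlap (log2 fold change 1.09, SE 0.15, edgeR adjusted p = 0.00131), and the log2 fold change was 0.96 without TranspCtrl replicate 1 (adjusted p = 6.1e-06) and 0.995 without TranspExer replicate 3. The glial marker *Sox10* had at most 3 counts in any library. *Kcnj16*, which can assemble with *Kcnj10*, was below the filter, with 6, 2 and 5 counts in TranspCtrl against 10, 12 and 11 in TranspExer. *Kcnj9*, its neighbour 11.9 kb away on chromosome 1 and a subunit of G protein-gated channels, had 9, 3 and 11 counts in the TranspCtrl libraries against 12, 10 and 17 in those of TranspExer and a log2 fold change of 0.87 that did not pass the test (adjusted p = 0.161). *Kcnj15* (ENSMUSG00000062609, chr16:95257558-95300260, plus strand) was the only tested inward rectifier that fell. It had 2.83, 3.13 and 3.07 CPM in TranspCtrl and 1.62, 1.16 and 0.894 CPM in TranspExer (log2 fold change -1.29, SE 0.25, edgeR adjusted p = 0.00653).

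*Kcnj2*, the classical strong inward rectifier that stabilizes the resting potential, was the most abundant member of its class with 29.2, 39.99 and 37.5 CPM in TranspCtrl and 45.1, 51.03 and 55.2 CPM in TranspExer. It was higher past the adjusted p threshold only (log2 fold change 0.51, SE 0.13, edgeR adjusted p = 0.0221), which became 0.0767 without TranspExer replicate 2 and 0.0914 without TranspExer replicate 3. *Kcnj5*, a G protein-gated subunit, had 6.30, 6.31 and 5.95 CPM in TranspCtrl and 9.10, 7.56 and 7.95 CPM in TranspExer (log2 fold change 0.41, SE 0.13, edgeR adjusted p = 0.0415). It passed under only 1 of 12 alternatives, with adjusted p-values of up to 0.15, and leaving out any library other than TranspCtrl replicate 1 ended this call.

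Two-pore genes were divided as well, with 1 upregulated and 1 downregulated among 5 tested of 14, against 3.5% and 5.28% of all tested genes. Another 2 were higher and 1 lower past the adjusted p threshold alone. In all, 3 were higher and 2 lower past that threshold, against 16.6% and 15.5%. The upregulated gene, *Kcnk12*, passed the filter through TranspExer libraries only. *Kcnk12* and *Kcnk13* encode the related halothane-inhibited leak channels, and both were higher in TranspExer. *Kcnk12* (ENSMUSG00000050138, chr17:87745801-87797994, minus strand) was close to the floor in TranspCtrl, with 2, 1 and 4 counts in the TranspCtrl libraries against 19, 10 and 23 in those of TranspExer (log2 fold change 2.94, SE 0.51, edgeR adjusted p = 0.00423). The size of this rise rests on few counts, and it was 3.495 on the log2 scale without TranspCtrl replicate 3. *Kcnk13* (ENSMUSG00000045404, chr12:99964499-100062682, plus strand), a leak channel known from microglia and macrophages, had 18.1, 19.7 and 18.6 CPM in TranspCtrl and 29.1, 30.5 and 31.6 CPM in TranspExer, with tight groups (log2 fold change 0.69, SE 0.08, edgeR adjusted p = 0.000902). Of the 9 macrophage markers, *Cd68* and *Fcgr1* rose (log2 fold changes 0.78 and 0.38), *Mrc1* fell (log2 fold change -0.33) and the other 6 did not pass the test, and the part of macrophages in the *Kcnk13* and *Kcnk6* values was not tested. *Kcnk6*, a leak channel of macrophages and endolysosomes, had 38.1, 44.05 and 41.1 CPM in TranspCtrl and 48.97, 53.4 and 48.8 CPM in TranspExer (log2 fold change 0.29, SE 0.08, edgeR adjusted p = 0.031). The adjusted p-value of *Kcnk6* was 0.0579 to 0.129 under 7 of 12 alternatives, including the fits without TranspCtrl replicate 3 or any 1 of the TranspExer replicates.

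*Kcnk5* (ENSMUSG00000023243, chr14:20140057-20181809, minus strand), an alkaline-activated channel involved in cell volume regulation, fell. It had 4.39, 3.75 and 3.35 CPM in TranspCtrl and 1.57, 1.98 and 1.44 CPM in TranspExer, so the libraries of the groups lay apart (log2 fold change -1.21, SE 0.21, edgeR adjusted p = 0.00428). *Kcnk2*, the stretch-sensitive leak channel also found in osteoblasts, had 3.08, 5.34 and 5.67 CPM in TranspCtrl and 2.82, 2.44 and 2.48 CPM in TranspExer, with TranspCtrl replicate 1 close to the TranspExer libraries. It was lower past the adjusted p threshold (log2 fold change -0.86, SE 0.25, edgeR adjusted p = 0.0334), and without TranspCtrl replicate 1 its log2 fold change was -1.09 (adjusted p = 0.000248). Leaving out any other library gave adjusted p-values of 0.076 to 0.103, and fitting the replicate number as a block gave 0.0501.

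The sodium-activated *Kcnt2* and the accessory *Kcnmb* genes are counted here with the calcium-activated class. Of its 5 tested genes, 1 was upregulated and 2 were downregulated, against 3.5% and 5.28% of all tested genes. *Kcnn4*, the intermediate-conductance channel of blood cells, was the most abundant of them with 37.3, 37.6 and 40.3 CPM in TranspCtrl and 33.4, 33.1 and 35.9 CPM in TranspExer. Its groups did not overlap but lay close together, and its log2 fold change of -0.17 did not pass the test (adjusted p = 0.128), although it did under 3 of 12 alternatives, among them the fit without TranspCtrl replicate 1 (adjusted p = 0.0429). *Kcnn1* (ENSMUSG00000002908, chr8:70842049-70863258, minus strand), a small-conductance channel gated through calmodulin, fell, with 2.002, 2.31 and 1.77 CPM in TranspCtrl and 1.10, 0.872 and 0.894 CPM in TranspExer (log2 fold change -1.08, SE 0.24, edgeR adjusted p = 0.0123). Its adjusted p-value was 0.0509 without TranspExer replicate 2 and 0.0507 without TranspExer replicate 3, and its log2 fold change was -0.97 without TranspCtrl replicate 2. *Kcnt2* (ENSMUSG00000052726, chr1:140246158-140612067, plus strand) had 1.90, 2.21 and 2.23 CPM in TranspCtrl and 0.732, 0.697 and 0.844 CPM in TranspExer, with no overlap and little spread (log2 fold change -1.47, SE 0.23, edgeR adjusted p = 0.00293). The small-conductance gene *Kcnn3* was below the filter, with 14, 9 and 14 against 3, 6 and 6 counts.

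The large-conductance channel is built from the pore-forming product of *Kcnma1* and auxiliary beta and gamma subunits. *Kcnma1* itself was below the filter, with 6, 11 and 11 counts in TranspCtrl against 5, 6 and 10 in TranspExer, and was not tested. *Kcnmb1* (ENSMUSG00000020155, chr11:33963013-33973641, plus strand), the beta subunit of vascular smooth muscle, lies within the span of *Kcnip1*, which had no count. It rose, with 1.37, 0.924 and 0.976 CPM in TranspCtrl and 3.77, 2.62 and 2.58 CPM in TranspExer (log2 fold change 1.45, SE 0.26, edgeR adjusted p = 0.00527). *Lrrc55*, a gamma subunit gene from the partner list, rose too, with 8, 10 and 11 counts in the TranspCtrl libraries against 35, 24 and 28 in those of TranspExer (log2 fold change 1.69, SE 0.28, edgeR adjusted p = 0.00369). *Kcnmb4*, the beta subunit of neurons, had 11, 15 and 29 counts in the TranspCtrl libraries against 4, 8 and 8 in those of TranspExer. Its log2 fold change of -1.31 did not pass the test (adjusted p = 0.0662). Without TranspCtrl replicate 1 *Kcnmb4* passed both thresholds (log2 fold change -1.57, edgeR adjusted p = 0.0172). It reached the filter level in TranspCtrl libraries only, the group in which it was high, so this call supports nothing further. The 2 tested *Kcnip* genes, which encode calcium-binding partners of Kv4 channels, did not pass either, and *Kcnip2* had at most 2 counts in a library. *Kcnip3* had 2.15, 2.98 and 2.14 CPM in TranspCtrl and 1.73, 2.03 and 1.74 CPM in TranspExer and a log2 fold change of -0.40 (adjusted p = 0.196), and *Kcnip4* one of -1.17 (adjusted p = 0.08).

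**Figure D4:**
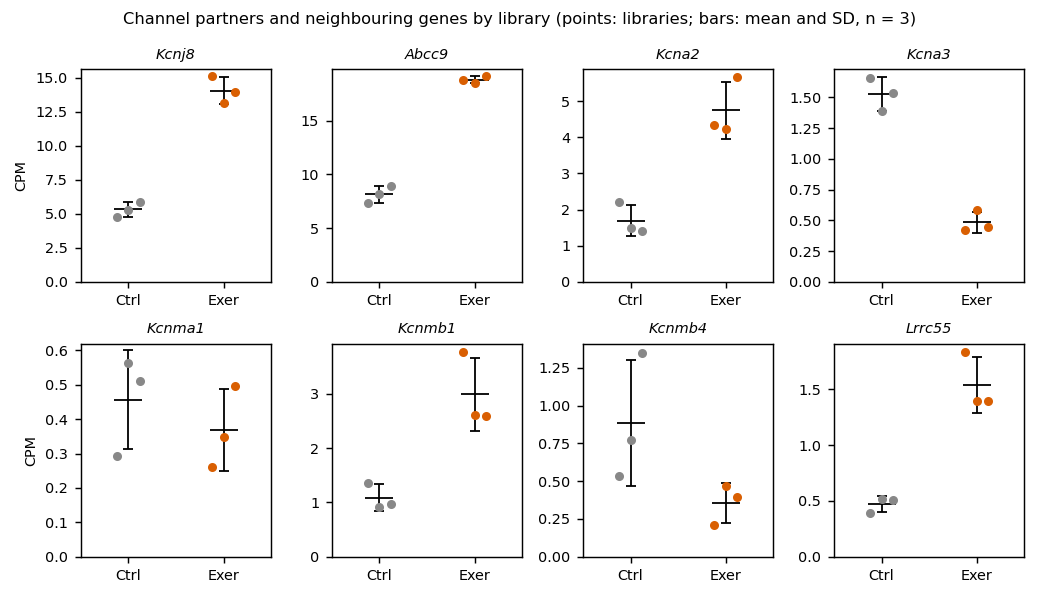
CPM by library for the ATP-sensitive channel genes *Kcnj8* and *Abcc9*, the adjacent genes *Kcna2* and *Kcna3*, and the large-conductance channel genes *Kcnma1*, *Kcnmb1*, *Kcnmb4* and *Lrrc55* (grey TranspCtrl, orange TranspExer, bars for mean and SD, n = 3, axes starting at 0). *Kcnj8* and *Abcc9* are higher in every TranspExer library, *Kcna2* and *Kcna3* are separated in opposite directions, and *Kcnma1* overlaps between the groups below 0.6 CPM.

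The remaining 55 genes were not tested. Of these, 22 had no count in any library, among them the voltage-gated *Kcnv1*, *Kcnv2*, *Kcne1* and *Kcne2*, the inward rectifiers *Kcnj3* and *Kcnj12*, and the calcium-activated *Kcnn2* and *Kcnt1*. Over all 92 genes, 39 had at most 3 counts in every library, including these 22. Among untested genes with more counts, the acid-sensitive leak channel gene *Kcnk3* had 0, 1 and 2 counts in TranspCtrl against 12, 10 and 9 in TranspExer, and the fast delayed rectifier *Kcnc2* had 1, 1 and 0 against 7, 5 and 3. In the opposite direction, *Kcnk10* had 5, 7 and 7 against 0, 2 and 3 counts, and the silent subunit *Kcns3* had 9, 8 and 8 against 3, 5 and 4. These genes, chosen after their values were seen, did not pass the filter with all 6 libraries and are given by their counts. When all genes with a count were kept, 70 of the 92 were tested, and 10 were upregulated and 6 downregulated, with 15 of the 17 calls shared and *Kcnk3* gained. *Kcnk3* was also upregulated past both thresholds without any 1 of the TranspCtrl replicates and without TranspExer replicate 3, and *Kcnj16* without TranspCtrl replicate 1. Both reached the filter level in TranspExer libraries only, so in the fits with a library left out they were tested only through the group in which they were high, and these calls support nothing further.

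Genes of potassium transport outside the Kcn names were described from a list of 42 genes, of which 27 were tested. Of these 27, 4 were upregulated and 3 downregulated, against 3.5% and 5.28% of all tested genes. Past the adjusted p threshold alone 9 were higher and 6 lower, against 16.6% and 15.5%, and the median log2 fold change of the 27 was 0.16. Sodium-potassium pump subunits (9 tested) held 2 upregulated genes and 1 downregulated gene. The pump regulator *Fxyd6* rose, with 8, 4 and 7 counts in the TranspCtrl libraries against 24, 16 and 27 in those of TranspExer (log2 fold change 1.91, adjusted p = 0.0052). The regulator *Fxyd2* fell, with 13, 17 and 31 counts in the TranspCtrl libraries against 3, 6 and 6 in those of TranspExer (log2 fold change -1.87, adjusted p = 0.0187). Cation-chloride cotransporters (6 tested) held 2 downregulated genes and none upregulated, while 3 were higher past the adjusted p threshold alone. The sodium-potassium-chloride cotransporter *Slc12a1* had 37, 30 and 28 counts in the TranspCtrl libraries against 11, 3 and 8 in those of TranspExer (log2 fold change -1.98, adjusted p = 0.00679). The potassium-chloride cotransporter *Slc12a5* had 46, 33 and 34 counts in the TranspCtrl libraries against 22, 13 and 14 in those of TranspExer (log2 fold change -1.08, adjusted p = 0.0255). Channel partner subunits (3 tested of 8) held the upregulated *Abcc9* and *Lrrc55* described above. The list of other potassium-permeable and intracellular channels (9 tested) held no gene past both thresholds, with 1 higher and 1 lower past the adjusted p threshold alone.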

How the data were processed

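Bone marrow MSC RNA-Seq libraries from 3 TranspCtrl and 3 TranspExer samples were analysed, grouped by their labels. The authors deposited estimated counts per gene as 1 table for the series, together with gene lengths and names. Between 10.1% and 12.2% of the deposited values were not whole numbers, and counts were rounded to whole numbers. The labels name a stranded mRNA kit whereas the methods of the study name another kit, and the submitters' processing notes give the build mm10. The aligner, counter and annotation are not given in the sources used here. The table listed 56980 genes, and all its columns belonged to the 6 samples or to gene annotation. Library totals were 17647682 to 21319228.

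Genes were filtered with filterByExpr and scaled with TMM, and the groups were compared with the quasi-likelihood test of edgeR 4.0.16 (R 4.3.3, limma 3.58.1) with Benjamini-Hochberg adjustment over 15190 genes. On data simulated for this comparison with 15190 genes, of which 200 were changed by 1.5 on the log2 scale, the test recovered 88.5% of the changed genes and 2.21% of its calls were false. DESeq2 1.42.0 recovered 89% with 2.73% false. The changed genes were drawn at random from all tested genes, whose median level was 20.1 CPM. Tested potassium channel genes had a median of 2.04 CPM, so these rates were not measured for genes like them. With 3 samples per group an exact permutation test cannot go below p = 0.1, so none was used.

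Members, lists of partner and marker genes, and the rule for named genes were chosen with earlier results of these data known. That rule named members past both thresholds, up to 12 others past the adjusted p threshold, the 3 members of each class with the most counts per kilobase, members within 0.25 of the fold threshold on the log2 scale, and listed genes past both thresholds. Untested members were given by counts. Values of some genes that enter the counts are not reported here. Other tested members (*Kcnq1*, *Kcnq5*, *Kcnd1*, *Kcnab1*, *Kcnab3* and *Kcnmb4*), *Gca*, and the markers *Acta2*, *Tagln*, *Myh11*, *Des*, *Cd68*, *Fcgr1*, *Mrc1*, *Col1a1*, *Thy1*, *Lepr*, *Snap25* and *Sox10* were named after their values were seen. Alternatives were another normalization (DESeq2, upper-quartile, library size only), other filters (all genes with a count, 1 CPM in 3 samples), a fold change of 2 tested in the model, the replicate number as a block, and each library left out. Positions come from GENCODE M21 (GRCm38, the same assembly as mm10), and promoters from RefSeq on GRCm38.p6.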

Additional observations from a re-analysis of the deposited data

How the results depend on the processing

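The 11 upregulated genes became 6 with a filter of 1 CPM in 3 samples, under which 28 members were tested, and 2 when a fold change of 2 was tested in the model, while the 6 downregulated genes became 1 in that model. With each library left out in turn, 7 to 11 were upregulated and 5 to 8 downregulated. At the adjusted p threshold alone, these ranges were 10 to 17 higher, against 16, and 5 to 10 lower, against 7. The lowest numbers of higher genes were those without TranspExer replicate 3. The median log2 fold change of the tested members, 0.047, ranged from -0.171 to 0.336 with a library left out, and was -0.034 with upper-quartile scaling and -0.041 with library size only, a scaling that moved the median of all genes from -0.018 to -0.105.

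With the replicate number as a block, 11 were upregulated and 6 downregulated, and these were the same 17 genes, while 15 were higher and 7 lower at the adjusted p threshold alone. In this fit *Kcnj5* had an adjusted p of 0.0642, *Kcnk2* 0.0501 and *Kcne3* 0.0301 (edgeR). Equal replicate numbers were not shown to pair the samples, since the correlations of their deviations from the group means were 0.025, -0.002 and 0.042, within the -0.081 to 0.074 seen over all pairs of libraries across groups.

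Of the 17 genes past both thresholds, 3 remained when the fold change was tested in the model. Under the other alternatives in which each gene was tested, 11 of the 17 kept both thresholds and 6 (*Kcna5*, *Kcng2*, *Kcnh1*, *Kcnh7*, *Kcnj10* and *Kcnn1*) missed 1 of them at least once. On the adjusted p threshold alone, of 34 tested members named here and leaving aside the fold change tested in the model, 9 missed it at least once and 4 (*Kcne3*, *Kcnn4*, *Kcnd1* and *Kcnmb4*) passed it at least once. Of these 34, *Kcnq5* alone changed direction, with a log2 fold change of 0.228 without TranspCtrl replicate 2 and 0.196 without TranspExer replicate 1, in a range of -0.196 to 0.228 with 1 library left out. At this depth 39 of the 92 genes had no more than 3 counts in any library and were not tested.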
